A study of Mus musculus with 8 samples.

Results

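Genes best known from white blood cells or, for Csf1, from signals to them, 6 in number, were followed in organoids of mouse stomach epithelium: Csf1, Csf1r, Grap, Siglecg, Spi1 and Cd68. They are 6 of the 56691 rows of the count table, found by their symbols, and were picked because of how they differed between the groups compared here, so their own values are given as a description with no test. Organoids are 3-dimensional cultures, grown in this case from the epithelium of the hindstomach (the glandular stomach) of embryos at day 18.5. All cultures spent 5 days in growth medium and then 7 days in differentiation medium before bulk RNA sequencing. One genotype was Shh-Cre;YAP5SA (4 libraries, called YAP5SA), where YAP5SA is an activated variant of the coactivator YAP that lacks the serines through which Hippo kinases restrain it. Its control was Shh-Cre (4 libraries, called Ctrl). Both genotypes carry Shh-Cre, a Cre recombinase driven from the sonic hedgehog gene, which is active in foregut epithelium. The labels do not say whether libraries of a group come from separate embryos, litters or cultures, so the p-values cover just the variation among these 8 libraries, which may be technical.

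CSF1 is a secreted growth factor, and CSF1R is the receptor tyrosine kinase that binds it, as well as a second ligand, IL-34. In the macrophage lineage this pair controls survival and proliferation, and the ETS factor PU.1, the product of Spi1, is a main activator of the Csf1r gene there. GRAP is an adaptor protein of the GRB2 family that links activated receptors to Ras signalling and is known from lymphocytes. Siglec-G is an inhibitory surface receptor for sialic acid on B cells, and CD68 is a heavily glycosylated protein of endosomes and lysosomes, related to the LAMP proteins and widely used as a macrophage marker.

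Total counts were 17387372 to 21039926 in the YAP5SA libraries and 18225648 to 25841256 in the Ctrl libraries. The groups also differed completely in sex-linked transcripts: 4 Y-linked genes had 880 to 3854 counts in every YAP5SA library and 0 in every Ctrl library, and Xist had at most 8 counts in a YAP5SA library against at least 8436 in a Ctrl library. Genotype and these sex-linked transcripts cannot be told apart in any difference below. All 12 epithelial markers had enough reads to be tested, with 4 called higher and 7 lower in YAP5SA and a median log2 fold change of -0.52. They summed to 10817 to 12707 CPM (counts scaled to a common library total) in YAP5SA libraries and 19508 to 21887 CPM in Ctrl libraries. Among them the claudin gene Cldn3 rose by 4.03 (SE 0.17, edgeR adjusted p = 1.73e-10), while the stomach claudin gene Cldn18 fell by 2.32 (SE 0.12, edgeR adjusted p = 6.66e-10) and the keratin gene Krt19 fell by 1.03 (SE 0.07, edgeR adjusted p = 2.78e-08) on the log2 scale. All 7 YAP/TEAD target genes found in the table were called higher in YAP5SA, with a median log2 fold change of 2.10. Of 13812 genes with enough counts to test, 64.5% were called, 33.1% higher and 31.3% lower in YAP5SA at an edgeR adjusted p under 0.05, with a median log2 fold change of 0.02. Scaling by library size alone moved that median to 0.19 and the split to 5742 higher and 3201 lower, against 4577 higher and 4330 lower with the TMM scaling used throughout.

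The stretch just upstream of the transcription start is shown for 3 members because these genes were high in the same libraries. RefSeq (GRCm38.p6) promoter windows were at hand for Csf1, Siglecg and Cd68, which is 3 of the 6 members, and each line gives the 250 bases before the start, 5′ to 3′ on the gene's own strand, with matches to the motifs searched in capitals.
Csf1 (chr3:107760470-107760719, minus strand): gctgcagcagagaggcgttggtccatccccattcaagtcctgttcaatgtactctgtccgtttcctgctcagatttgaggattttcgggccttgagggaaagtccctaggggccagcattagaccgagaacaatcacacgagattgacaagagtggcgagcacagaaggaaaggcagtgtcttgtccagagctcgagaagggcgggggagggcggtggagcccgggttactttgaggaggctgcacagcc
Siglecg (chr7:43407989-43408238, plus strand): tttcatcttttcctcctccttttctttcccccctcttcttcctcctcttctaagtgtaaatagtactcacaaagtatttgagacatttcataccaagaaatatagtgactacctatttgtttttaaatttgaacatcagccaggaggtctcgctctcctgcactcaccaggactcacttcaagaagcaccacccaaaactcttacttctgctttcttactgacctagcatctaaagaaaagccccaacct
Cd68 (chr11:69666171-69666420, minus strand): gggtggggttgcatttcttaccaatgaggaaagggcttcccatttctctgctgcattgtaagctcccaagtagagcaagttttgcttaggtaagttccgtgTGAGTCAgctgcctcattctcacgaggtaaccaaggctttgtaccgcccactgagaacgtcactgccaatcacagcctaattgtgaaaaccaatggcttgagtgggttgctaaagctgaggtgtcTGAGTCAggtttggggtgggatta
RefSeq gives a second start for Siglecg a little further downstream, whose window overlaps the one shown. Each window was searched on both strands for GGAATG, the core bound by TEAD factors (the DNA-binding partners of YAP), for TGACTCA and TGAGTCA, the sites of AP-1, for GGAAGT, an ETS core, and for GAGGAAGT, a PU.1 site that contains that ETS core. Cd68 held TGAGTCA in 2 places, from 149 to 143 and from 24 to 18 bases upstream of the start. Of 32851 promoter windows of this length, 4.46% held an AP-1 match, 12.6% the TEAD core, 19.7% the ETS core and 2.44% the PU.1 site. No other motif searched was found in the windows of Csf1, Siglecg (both starts) or Cd68, which says only that these letters are not in these windows. The share of G and C was 56.4% for Csf1, 40.8% for Siglecg and 49.2% for Cd68, against a median of 52.4% over all windows.

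The receptor and its ligand were both high in YAP5SA organoids and low in Ctrl organoids. The receptor gene Csf1r had 702, 565, 578 and 784 reads in YAP5SA replicates 1 to 4, against 5, 6, 10 and 4 reads in Ctrl replicates 1 to 4. Every YAP5SA library was thus far above every Ctrl library, and the Ctrl libraries were near the floor of 3 counts. The level was 32.0 ± 2.73 CPM in YAP5SA and 0.319 ± 0.0845 CPM in Ctrl (SD, n = 4 each), a log2 ratio of mean CPM of 6.64. From summed reads, 2629 in YAP5SA against 25 in Ctrl, the ratio was 98.2 with a 95% counting interval of 66.4 to 152.

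Csf1, the ligand, had 824, 732, 799 and 1121 reads in YAP5SA replicates 1 to 4, against 79, 29, 51 and 50 reads in Ctrl replicates 1 to 4. The groups did not overlap, and YAP5SA replicate 4 and Ctrl replicate 1 were the highest of their groups. The level was 42.3 ± 6.31 CPM in YAP5SA and 2.77 ± 1.21 CPM in Ctrl (SD, n = 4 each), a log2 ratio of mean CPM of 3.93. Counts per gene do not separate the secreted and membrane-bound splice forms of CSF1.

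Grap, the adaptor, was read only in YAP5SA libraries. It had 107, 104, 76 and 110 reads in YAP5SA replicates 1 to 4 and 0 reads in each Ctrl replicate. The YAP5SA level was 4.83 ± 0.572 CPM (SD, n = 4), and against a floor of 3 counts over the Ctrl group it was at least 124-fold higher in YAP5SA. The 95% counting interval of the ratio, which treats the Ctrl reads as a random count, starts lower, at 100.01. Zero reads in a Ctrl library allow a level of up to 0.125 to 0.178 CPM.

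Siglecg, the sialic acid receptor, was in the same position. It had 322, 338, 286 and 274 reads in YAP5SA replicates 1 to 4, against 1, 0, 0 and 0 reads in Ctrl replicates 1 to 4. The single Ctrl read lay in replicate 1. The YAP5SA level was 14.99 ± 2.09 CPM (SD, n = 4), and the ratio of summed reads was 1139, with a 95% counting interval of 204 to 45025 that reflects the lone Ctrl read. Without Ctrl replicate 1 no Ctrl read is left, and the log2 ratio against the floor of 3 counts is then 8.17 in place of 10.05.

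Spi1, which encodes PU.1, stood apart from the other 5 members. It had 1 read in YAP5SA replicate 3 and 0 reads in the other 3 YAP5SA libraries, against 0 reads in all 4 Ctrl libraries. Both groups were thus under the floor of 3 counts, and no fold is given. The receptor whose gene PU.1 activates in macrophages had 2629 reads in the same YAP5SA libraries that held 1 read of Spi1.

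Cd68 was well above the floor in both groups. It had 846, 795, 794 and 671 reads in YAP5SA replicates 1 to 4, against 142, 295, 367 and 151 reads in Ctrl replicates 1 to 4. In CPM, Ctrl replicates 2 and 3 (17.5 and 15.3) were about double Ctrl replicates 1 and 4 (8.01 and 8.43), and all 4 lay below the lowest YAP5SA library, at 30.6 CPM. The means were 38.2 ± 5.31 CPM in YAP5SA and 12.3 ± 4.80 CPM in Ctrl (SD, n = 4 each), a log2 ratio of mean CPM of 1.63.

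**Figure D1:**
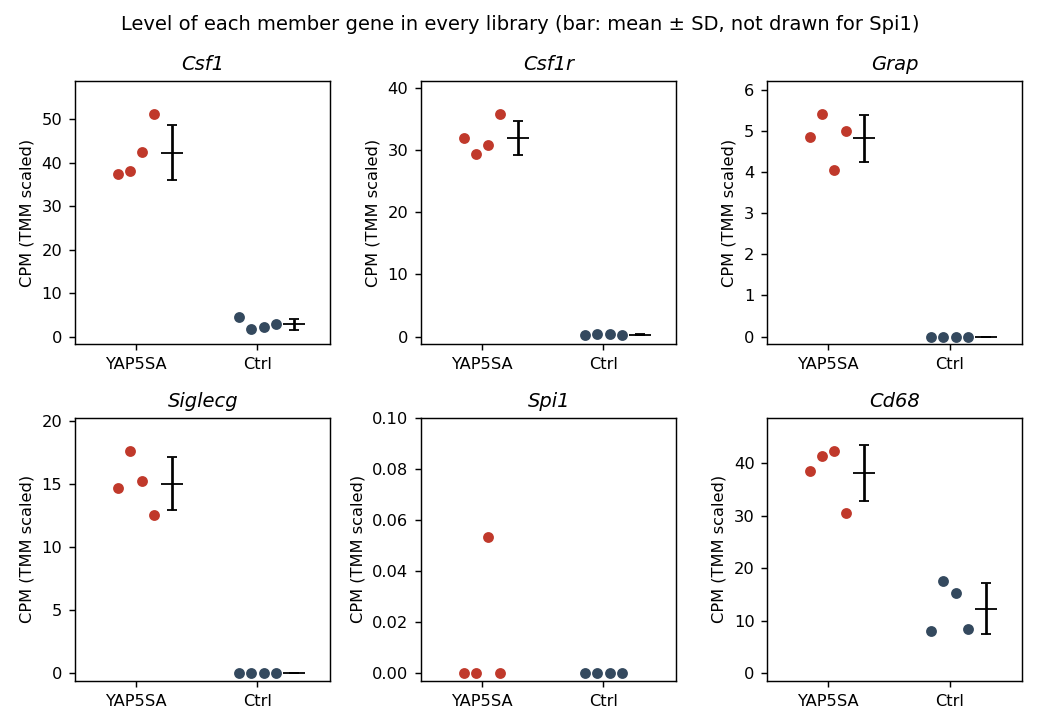
CPM (TMM scaled, linear axes from 0) of the 6 genes in each of the 4 YAP5SA (red) and 4 Ctrl (dark blue) libraries, with mean and SD beside the points except for Spi1. Csf1, Csf1r, Grap, Siglecg and Cd68 lie higher in every YAP5SA library than in any Ctrl library, while Spi1 shows the single read of YAP5SA replicate 3.

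In 5 of the 6 genes all 4 YAP5SA libraries lay above all 4 Ctrl libraries, as they did for 30.4% of all genes tested, while 28.3% lay below throughout. The genes were chosen on this contrast, so nothing is read from that count. The same 5 passed the filter on low counts, and Grap, Siglecg and Csf1r passed it through the YAP5SA libraries alone. Per kilobase of exon (GENCODE M21 lengths), so that levels of different genes can be compared, Cd68 led in YAP5SA with 24.3 to 33.7 CPM per kb, followed by Csf1 with 7.09 to 9.68 and Csf1r with 5.09 to 6.19. Siglecg, with 2.60 to 3.66 CPM per kb, and Grap, with 2.26 to 3.02, overlapped in their libraries, whereas the other neighbours in this order did not. In Ctrl, Cd68 again led with 6.37 to 13.9 CPM per kb, followed by Csf1 with 0.325 to 0.844 and Csf1r with 0.0387 to 0.0722.

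The profiles of the members across the 8 libraries, each centred on its own mean log2 CPM, were closest for Csf1r and Grap, with a root mean square difference of 0.40 on the log2 scale. Csf1r and Siglecg differed by 0.53, Csf1 and Csf1r by 1.25, and Siglecg and Cd68, the least alike pair, by 2.72. By the same measure over 12250 other tested genes, the nearest to Csf1r were Sh3tc2 (0.23), Cdkn1c (0.25) and Itpkb (0.25). Nearest to Csf1 were Igfbp7 (0.18), Lbp (0.26) and Ass1 (0.26), and nearest to Grap were Mmp14 (0.19), Hspb8 (0.22) and Plscr2 (0.23). Siglecg lay nearest to Cav1 (0.28), Lhfp (0.31) and Gpc3 (0.36), and Cd68 to Arsa (0.12), Slc9a5 (0.15) and Ifi203 (0.16). These differences are set mostly by how far apart the groups lie, and for genes with 0 reads in Ctrl also by the prior count of 2.

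Reads of leukocytes were looked for next, since the members other than Csf1, a secreted ligand, are best known from these cells. Ptprc, the pan-leukocyte phosphatase CD45, had 0, 1, 1 and 1 reads in YAP5SA replicates 1 to 4, against 2, 2, 5 and 6 reads in Ctrl replicates 1 to 4. Tyrobp, the signalling adaptor DAP12 of myeloid and NK cells, had 0 reads in all 8 libraries. Fcer1g, the Fc receptor gamma chain, had 0, 0, 3 and 1 reads in YAP5SA replicates 1 to 4, against 0, 0, 3 and 0 reads in Ctrl replicates 1 to 4. The check genes were thus at or near 0 in both groups, and the summed reads of Ptprc were fewer in YAP5SA (3) than in Ctrl (15), in contrast to Csf1r (2629 and 25). In bulk RNA, fewer cells of a type and less RNA per cell cannot be told apart.

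Many macrophage genes were also at or near 0 in YAP5SA, but not all. The surface receptor gene Adgre1 (F4/80), the complement gene C1qc, the chemokine receptor gene Ccr2, and Marco, Timd4, Ms4a7 and Fcrls had 0 reads in every library. C1qa and C1qb had 0 reads over the YAP5SA libraries against 1 each over the Ctrl libraries, and the pore-forming gene Mpeg1 had 0 against 11. In the other direction, the integrin gene Itgam (CD11b) had 53 reads over the YAP5SA libraries against 5 over the Ctrl libraries, and the chemokine receptor gene Cx3cr1 had 2 against 0. Other markers of the list had reads in both groups. Mrc1 had 88 reads over the YAP5SA libraries and 124 over the Ctrl libraries, Laptm5 69 and 84, Cd74 53 and 41, and Aif1 18 and 11. C1qa, C1qb, Mpeg1, Itgam, Cx3cr1, Mrc1, Laptm5, Cd74 and Aif1 were picked with their values known. Of 30 macrophage and monocyte markers, 16 had at most 10 reads in all. The test called 3 of 9 genes higher (33.3%) and 2 lower (22.2%), against 33.1% and 31.3% over all genes tested. The list summed to 98.4 to 118 CPM in YAP5SA libraries and 54.0 to 92.7 CPM in Ctrl libraries. Most of that was Cd14, the lipopolysaccharide coreceptor, and Fcgr3, an IgG receptor, and without this pair, a step taken after their values were seen, the list summed to 7.77 to 9.71 CPM in YAP5SA and 10.1 to 16.02 CPM in Ctrl.

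Within that list Fcgr3 rose to 28.2 ± 5.63 CPM in YAP5SA, against 9.80 ± 1.18 CPM in Ctrl (SD, n = 4 each; log2 fold change 1.52, SE 0.15, edgeR adjusted p = 6.19e-07). Cd14 rose by 0.55 (SE 0.16, edgeR adjusted p = 0.00689). The lysozyme gene Lyz2 had 71 reads in YAP5SA and 3 in Ctrl, a ratio of 22.1 with a 95% counting interval of 7.26 to 110 (edgeR adjusted p = 4.99e-05). The fitted log2 fold change of Lyz2 was 4.26, and 5.21 without Ctrl replicate 1, which held 2 of the Ctrl reads. In the other direction, the leukocyte tetraspanin gene Cd53 fell by 1.68 (SE 0.33, edgeR adjusted p = 0.000465) and the hyaluronan receptor gene Lyve1 fell by 2.60 (SE 0.61, edgeR adjusted p = 0.00186) on the log2 scale. Without YAP5SA replicate 1, which held 14 of its YAP5SA reads, the change of Lyve1 was -3.99. Csf2ra, a chain of the GM-CSF receptor, was at 0.31 (edgeR adjusted p = 0.294).

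**Figure D2:**
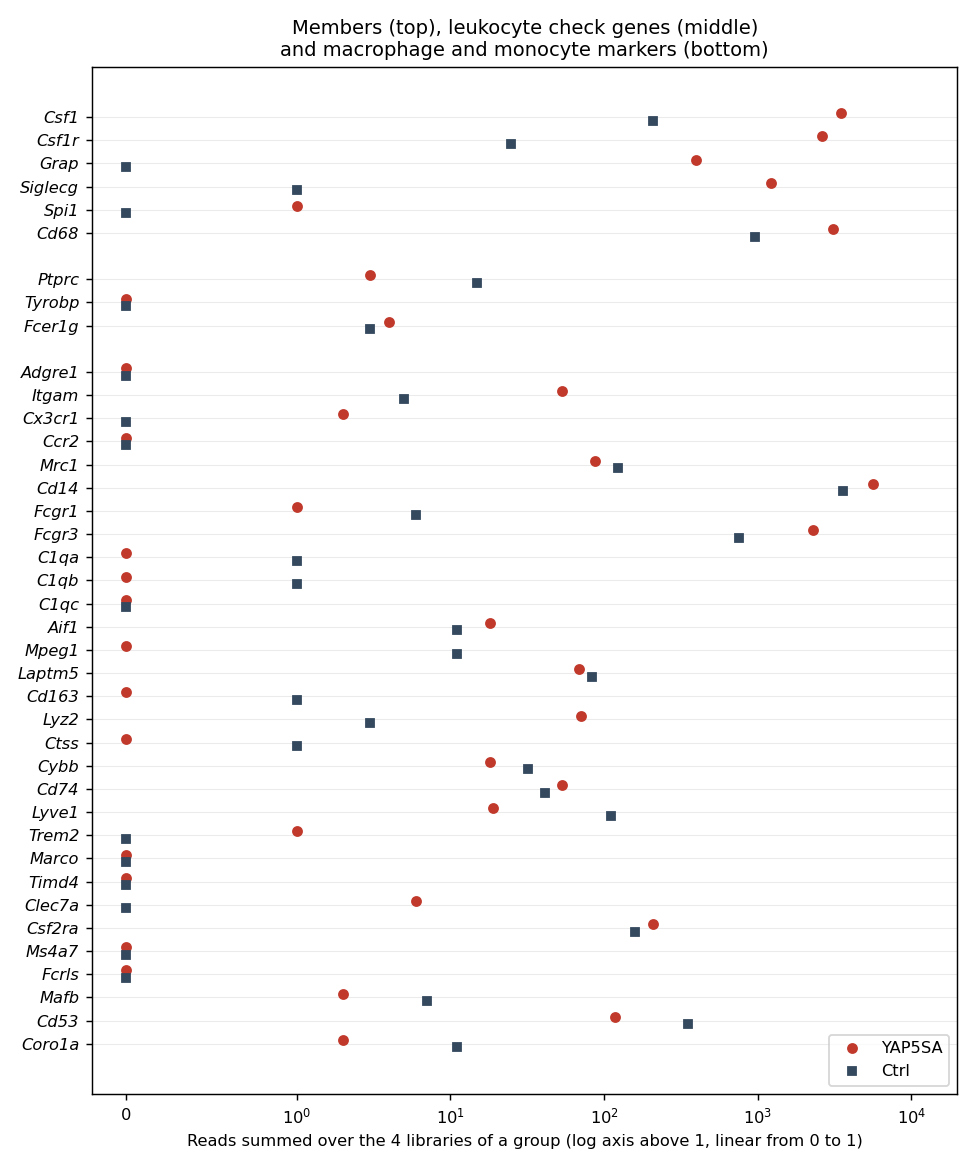
Reads summed over the 4 libraries of each group (log axis above 1, linear from 0 to 1) for the 6 members, the 3 leukocyte check genes and 30 macrophage and monocyte markers, YAP5SA as red circles above Ctrl as dark squares. Csf1r and Siglecg reach 2629 and 1220 reads in YAP5SA, whereas Tyrobp and Adgre1 are at 0 in both groups.

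Siglecg is known from B cells, whose markers were sparse. Ms4a1, Pax5, Cd22 and Blk had 0 reads in every library, and 2 of 12 B cell markers were tested. The IgM receptor gene Fcmr rose to 5.13 ± 1.09 CPM in YAP5SA, against 0.232 ± 0.120 CPM in Ctrl (SD, n = 4 each; log2 fold change 4.41, SE 0.35, edgeR adjusted p = 7.84e-08), and the B cell adaptor gene Blnk fell by 2.13 (SE 0.45, edgeR adjusted p = 0.000837). The B cell list summed to 4.27 to 6.89 CPM in YAP5SA and 1.58 to 2.79 CPM in Ctrl. Fcmr, with 421 reads in YAP5SA and 18 in Ctrl, made up most of the YAP5SA sum. In the other direction, Blnk had 27 reads in YAP5SA and 116 in Ctrl, Vpreb1 had 7 and 26, and Cd79b had 0 and 1. Ebf1 had 7 and 4, and Cd79a and Cr2 had 1 and 1. Cd79a, Cd79b and Cr2 were picked with their values known. Of 13 T and NK cell markers 8 (Cd3d, Cd3g, Cd2, Cd4, Cd8a, Ncr1, Klrb1c and Nkg7) had 0 reads in every library, Lck was at -0.23 (edgeR adjusted p = 0.677), and the list summed to 0.416 to 0.853 CPM in YAP5SA and 0.375 to 0.959 CPM in Ctrl. Of 13 granulocyte and mast cell markers 7 (Csf3r, Mpo, Elane, Cpa3, Tpsb2, Ms4a2 and Epx) had 0 reads in every library, and the list summed to 0.365 to 1.35 CPM in YAP5SA and 0.250 to 1.18 CPM in Ctrl.

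Other cells that surround the epithelium were checked in the same way. Of 9 endothelial markers 1, Esam, was tested. The list summed to 1.46 to 2.36 CPM in YAP5SA and 2.54 to 3.73 CPM in Ctrl, with Cldn5 at 0 reads in every library and Esam at -1.03 (edgeR adjusted p = 0.0523). Vwf had more reads in YAP5SA (62) than in Ctrl (23), as did Kdr (6 and 1) and Tie1 (4 and 0). Tek (16 and 58), Cdh5 (5 and 44), Pecam1 (4 and 6) and Emcn (0 and 1) had fewer in YAP5SA. These sparse endothelial markers were named after their values were seen. Mesenchymal markers summed to 25.2 to 29.6 CPM in YAP5SA and 0.829 to 1.64 CPM in Ctrl. The intermediate filament gene Vim made up most of that sum, at 25.6 ± 2.11 CPM in YAP5SA and 0.739 ± 0.572 CPM in Ctrl (SD, n = 4 each; log2 fold change 5.15, SE 0.31, edgeR adjusted p = 5.12e-09), while the collagen gene Col1a2 and Lum had 0 reads in every library. Among sparser markers, Myh11 had 54 reads in YAP5SA and 5 in Ctrl, Pdgfra had 36 and 8, and Pdgfrb had 20 and 2. Twist1 had 13 and 0, and Acta2 had 7 and 0. Des (9 and 14), Col1a1 (4 and 9), Dcn (0 and 3) and Col3a1 (0 and 1) had fewer reads in YAP5SA. All were named after their values were seen, and with no count filter 5 mesenchymal markers were called higher. The part of these markers in the values of the members was not tested.

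Around the receptor and its ligand, a list of 38 other ligands, receptors and signalling genes of CSF1R moved in both directions. The test called 6 of 30 genes higher (20%) and 12 lower (40%), against 33.1% and 31.3% over all genes tested. It made no call for 12, and the median log2 fold change was -0.15, or 0.02 when scaled by library size. Il34, the second ligand of CSF1R, rose to 10.5 ± 2.12 CPM in YAP5SA, against 2.71 ± 0.493 CPM in Ctrl (SD, n = 4 each; log2 fold change 1.95, SE 0.20, edgeR adjusted p = 1.12e-06). Per kilobase Il34 was at 5.37 CPM per kb in YAP5SA and 1.38 in Ctrl, and Csf1 was at 8.01 in YAP5SA and 0.525 in Ctrl. Among kinases and adaptors that act with the receptor, the Src family kinase gene Fyn rose by 2.93 (SE 0.25, edgeR adjusted p = 1.78e-07) and the docking protein gene Gab1 by 1.25 (SE 0.13, edgeR adjusted p = 1.22e-06). Stat3, a transcription factor downstream of many cytokine receptors, fell by 0.65 (SE 0.07, edgeR adjusted p = 3.14e-06). Fgr, a myeloid Src family kinase gene, had 0 reads in every library. Sdc1, which like Ptprz1 has been described as another receptor for IL-34, was at -0.12 (edgeR adjusted p = 0.128), and Ptprz1 had 33 reads in YAP5SA and 1 in Ctrl, a ratio of 30.8 with a counting interval of 5.16 to 1253. Sdc1 and Ptprz1 are named after their values were seen.

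CSF1R belongs to the same receptor class as KIT, FLT3 and the PDGF receptors. Of 10 genes for these receptors and their ligands, 5 were tested, all ligands. The test called 1 of them higher (20%) and 2 lower (40%), against 33.1% and 31.3% over all genes tested. Pdgfd rose by 0.93 (SE 0.14, edgeR adjusted p = 4.48e-05), while the KIT ligand gene Kitl fell by 0.83 (SE 0.16, edgeR adjusted p = 0.000517) and Pdgfa fell by 0.49 (SE 0.12, edgeR adjusted p = 0.00331) on the log2 scale. Pdgfc was at 0.32 (edgeR adjusted p = 0.0760). It was called without Ctrl replicate 2 (0.45, edgeR adjusted p = 0.0123) and when scaled by library size (0.50, edgeR adjusted p = 0.0111). It was also called with no count filter (edgeR adjusted p = 0.0432) and with the replicate number as a block (edgeR adjusted p = 0.0366). No receptor gene of the list other than Csf1r had enough reads to be tested.

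Among the relatives of Grap, GRB2 family adaptors and their partners, the test called 3 of 15 genes higher and 3 lower (20% each). Over all genes tested the shares were 33.1% and 31.3%. The test made no call for 9 of the relatives, and their median log2 fold change was -0.07, or 0.11 when scaled by library size. The count of lower genes was 5 without Ctrl replicate 2, and that of higher genes was 5 without YAP5SA replicate 2. Gab1 is given above, and Shc3 and Lcp2 had 0 reads in every library. The membrane adaptor gene Lat2 rose by 2.40 (SE 0.47, edgeR adjusted p = 0.000511), and the dynamin gene Dnm2 fell by 0.63 (SE 0.09, edgeR adjusted p = 2.85e-05). The founding member Grb2, named after its values were seen, was at 78.4 ± 2.84 CPM in YAP5SA and 88.5 ± 6.42 CPM in Ctrl (SD, n = 4 each; log2 fold change -0.18, edgeR adjusted p = 0.0508). Grap2, the adaptor GADS of T cells, had 0 reads in YAP5SA libraries and 50 in Ctrl libraries, the opposite of Grap, and was at least 17.9-fold lower against the floor of 3 counts over the YAP5SA group. Like Grb2 it was picked with its values known, and its Ctrl reads lay mainly in replicates 2 (17 reads) and 3 (28 reads).

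Siglecg was the member of its family with reads in number. None of the 8 other Siglec genes listed passed the count filter, and together they summed to 0.456 to 0.936 CPM in YAP5SA and 0 to 0.474 CPM in Ctrl. Cd22, the nearest B cell relative in function, as well as Cd33, Siglech and Siglec15, had 0 reads in every library. Mag, the myelin-associated Siglec, had 38 reads in YAP5SA and 0 in Ctrl, at least 11.8-fold higher against the floor of 3 counts over the Ctrl group, with a 95% counting interval of the ratio that starts at 9.16. Mag was also picked with its values known.

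Genes for the sialic acid that Siglec-G binds, and for its ligand and effectors, moved in both directions. The test called 5 of 21 genes higher (23.8%) and 9 lower (42.9%), against 33.1% and 31.3% over all genes tested. It made no call for 7, and the median log2 fold change was -0.10. Scaling by library size gave a median of 0.07 and called 8 higher. Cmas, which makes the activated sugar CMP-sialic acid, fell to 169 ± 4.89 CPM in YAP5SA, against 304 ± 17.04 CPM in Ctrl (SD, n = 4 each; log2 fold change -0.84, SE 0.07, edgeR adjusted p = 1.04e-07). Of the sialyltransferase genes, St6galnac2 fell by 4.46 (SE 0.20, edgeR adjusted p = 3.21e-10) and St3gal6 fell by 1.34 (SE 0.11, edgeR adjusted p = 1.15e-07), whereas St3gal1 rose by 2.82 (SE 0.24, edgeR adjusted p = 1.74e-07). Cd24a, whose product is a ligand of Siglec-G, fell by 0.55 (SE 0.08, edgeR adjusted p = 3.13e-05), and Ptpn6, the phosphatase SHP-1 that inhibitory Siglecs recruit, fell by 0.67 (SE 0.10, edgeR adjusted p = 6.46e-05) on the log2 scale. St6gal1 had more reads in YAP5SA (3382) than in Ctrl (1084), a ratio of 2.91 with a counting interval of 2.72 to 3.12. Neu3 had 565 reads in YAP5SA and 50 in Ctrl, a ratio of 10.55 with a counting interval of 7.89 to 14.4. St6galnac1 had 0 reads in every library, and Cd24a, Ptpn6, St6gal1 and Neu3 were picked with their values known.

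With Spi1 near 0, other ETS factors and the usual partners and targets of PU.1 were described. Among 25 ETS factor genes the test called 6 higher and 7 lower and made no call for 6. That is 31.6% and 36.8% of those tested, against 33.1% and 31.3% over all genes tested. The median log2 fold change of the ETS factor genes was -0.08, or 0.10 when scaled by library size. Spic, Erg, Fli1, Fev and Etv2 had 0 reads in every library. Ehf, an epithelial ETS factor gene, rose to 490 ± 31.2 CPM in YAP5SA, against 251 ± 7.57 CPM in Ctrl (SD, n = 4 each; log2 fold change 0.96, SE 0.07, edgeR adjusted p = 3.65e-08). Spdef, a factor of secretory cells, fell by 3.68 (SE 0.19, edgeR adjusted p = 1.19e-09), Etv3 fell by 1.20 (SE 0.10, edgeR adjusted p = 1.27e-07) and Elf4 fell by 1.14 (SE 0.08, edgeR adjusted p = 1.83e-08) on the log2 scale.

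For partner factors of PU.1 the test called 6 of 11 genes higher (54.5%) and 2 lower (18.2%), against 33.1% and 31.3% over all genes tested. The median log2 fold change of the partners was 0.43. The NF-kB subunit gene Nfkb1 rose by 0.70 (SE 0.08, edgeR adjusted p = 2.63e-06), Cebpd by 1.22 (SE 0.18, edgeR adjusted p = 3.06e-05) and the inhibitor gene Id2 by 0.77 (SE 0.12, edgeR adjusted p = 8.45e-05). Cebpa, a main myeloid partner, fell by 1.17 (SE 0.17, edgeR adjusted p = 4.07e-05), and Cebpe and Batf had 0 reads in every library. For target genes of PU.1 in myeloid and B cells the test called 3 of 11 genes higher (27.3%) and 6 lower (54.5%). Their median log2 fold change was -0.78. Leaving out each library gave 3 to 4 of these targets higher and 4 to 6 lower, and scaling by library size gave 3 higher and 4 lower. The Toll-like receptor genes Tlr4 and Tlr2 fell by 0.81 (SE 0.09, edgeR adjusted p = 2.88e-06) and fell by 3.18 (SE 0.45, edgeR adjusted p = 2.58e-05), and Lcp1, an actin-bundling protein gene, fell by 1.16 (SE 0.16, edgeR adjusted p = 1.80e-05) on the log2 scale. The 3 higher genes were Fcgr3, Cd14 and Lyz2, given above, and Ncf4, Csf2rb, Csf3r, Il7r, Mpo, Was and Vav1 had 0 reads in every library.

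The relatives of Cd68, LAMP proteins and scavenger receptors, included 9 tested genes. The test called 2 higher (22.2%) and 5 lower (55.6%), against 33.1% and 31.3% over all genes tested. The median log2 fold change of the list was -0.22, and scaling by library size called 3 lower. Cd63, a lysosomal tetraspanin gene, fell to 211 ± 15.4 CPM in YAP5SA, against 318 ± 46.5 CPM in Ctrl (SD, n = 4 each; log2 fold change -0.59, SE 0.10, edgeR adjusted p = 0.000155). The scavenger receptor genes Scara5 and Scara3 fell by 4.41 (SE 0.26, edgeR adjusted p = 4.02e-09) and fell by 0.72 (SE 0.13, edgeR adjusted p = 0.000248), and Colec12 rose by 3.93 (SE 0.71, edgeR adjusted p = 0.000231). Colec12 had 72 reads in YAP5SA and 4 in Ctrl, all 4 in Ctrl replicate 3, and without that library the fitted change was 7.07. No Ctrl read is then left, so that value depends on the default prior count of the edgeR fit, not on the 2 used for log2 CPM. Lamp1 had 56206 reads in YAP5SA and 61140 in Ctrl, a ratio of 0.858, and Lamp2 had 53576 and 37982, a ratio of 1.32. Lamp3 had 8 reads in each group. Lamp1, Lamp2 and Lamp3 were picked with their values known. Lamp5 and Marco had 0 reads in every library.

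**Figure D3:**
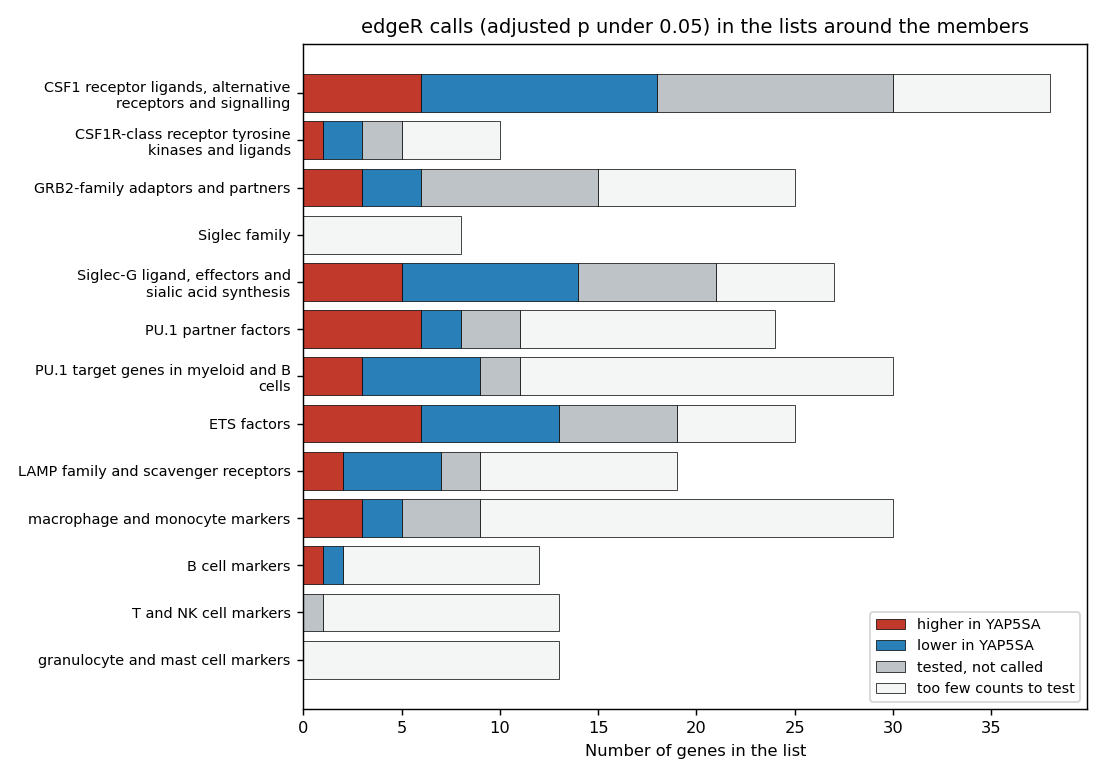
Number of genes in each list that edgeR called higher (red) or lower (blue) in YAP5SA, tested without a call (grey) or did not test (pale). Calls in both directions occur in the pathway lists, for example 6 higher and 12 lower around the CSF1 receptor. Over all genes tested, 33.1% were called higher and 31.3% lower. Most B, T, NK and granulocyte markers had too few counts to test.

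**Figure D4:**
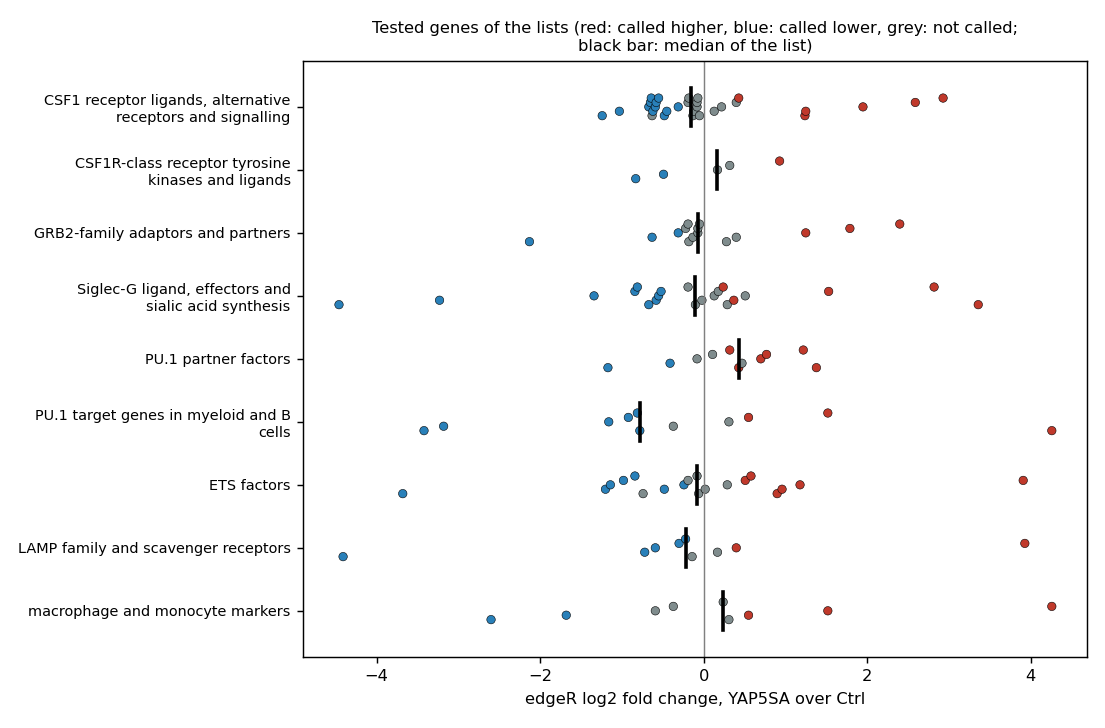
Log2 fold change (YAP5SA over Ctrl) of each tested gene in 8 lists around the members and in the macrophage and monocyte markers, coloured by call, with the median of each list as a black bar. Among these lists, medians run from -0.78 for the PU.1 targets to 0.43 for the PU.1 partners, against 0.02 over all genes.

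The nearest protein-coding genes of the count table on each chromosome were compared with the members, to see whether whole stretches were higher (order from RefSeq, GRCm38.p6). Beside Csf1r lie Pdgfrb, with 20 reads in YAP5SA and 2 in Ctrl, and Hmgxb3, at 23.6 ± 2.42 CPM in YAP5SA and 21.97 ± 2.41 CPM in Ctrl (SD, n = 4 each; log2 fold change 0.11, edgeR adjusted p = 0.413, and called only when scaled by library size, adjusted p = 0.0400). Hmgxb3 runs on the opposite strand and shares 15.1% of the exon bases of Csf1r in GENCODE M21, so reads there cannot be assigned with certainty without a stated strand setting. Beside Csf1, Ahcyl1 rose by 0.43 (SE 0.07, edgeR adjusted p = 0.000162) and Eps8l3 fell by 2.18 (SE 0.13, edgeR adjusted p = 3.90e-09). Beside Grap, Epn2 rose by 0.88 (SE 0.10, edgeR adjusted p = 2.84e-06), and Slc5a10 had 7 reads in YAP5SA and 5 in Ctrl.

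The neighbours of Siglecg, Siglecf and Gm38999, had 0 reads in YAP5SA libraries, and 3 and 0 reads in Ctrl libraries. Beside Cd68, Mpdu1 fell by 1.08 (SE 0.09, edgeR adjusted p = 1.21e-07), and Eif4a1 was at 0.21 (SE 0.09, edgeR adjusted p = 0.0415), a call that ended without YAP5SA replicate 2 or 4 or Ctrl replicate 2, 3 or 4 (adjusted p from 0.0686 to 0.156). Beside Spi1, which was itself near 0, the zinc transporter gene Slc39a13 rose to 30.8 ± 2.78 CPM in YAP5SA, against 3.48 ± 0.500 CPM in Ctrl (SD, n = 4 each; log2 fold change 3.14, SE 0.13, edgeR adjusted p = 1.29e-10), and Mybpc3 had 0 reads in every library.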

How the data were processed

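Bulk RNA of 8 organoid cultures was compared, 4 YAP5SA and 4 Ctrl, grouped by sample title. The table the authors deposited holds unnormalised read counts for each gene in each library; cutadapt, HISAT2 2.0.1, HTSeq 0.6.1 and the build mm9 are named per the submitters' processing notes, while no source used here states the annotation, strand setting or filters. Because the reference annotation is GRCm38, it served only for exon lengths, gene order, overlaps and promoter windows, and no coordinates of the files are given.

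The test used edgeR 4.0.16 in R 4.3.3: filterByExpr (minimum count 10, minimum total 15; 13812 genes), TMM scaling, and the quasi-likelihood F test of YAP5SA over Ctrl, two-sided, with no covariate and Benjamini-Hochberg adjustment over all genes tested at 0.05. CPM use the TMM scaled library sizes, SE is the log2 fold change over the square root of F, and a group with 0 reads was set to 3 counts in all for fold bounds. Intervals and floors cover counting error only, since reads carry no molecular identifiers. A floor of 3 counts in a library is 0.125 to 0.178 CPM. No replicates agreed within sampling noise (chi-square per degree of freedom at least 4.69). The test was tried on simulated data.

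The members and lists were chosen with earlier results of these data known. Named list genes are up to 4 tested genes with the smallest p in each list, those with 0 counts throughout, and the most abundant leukocyte markers; others are marked in the text, and neighbouring genes were added after the data were seen. Of the genes this rule takes, sex-linked, YAP/TEAD target and mitochondrial ones and a few sparse leukocyte markers are left unnamed, and 1 marker is not reported here. Alternatives were DESeq2 1.42.0, RLE and library size scaling, no count filter, the replicate number as a block and leaving out each library.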

Additional observations from a re-analysis of the deposited data

Results flagged for a closer look

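In each group of 4 libraries the gap from the highest or lowest library to its nearest neighbour was divided by the range, and 10 of 142 groups passed Dixon's 95% value of 0.829; chance flags about 1 in 20 groups. Several flags are single reads or a few reads: Siglecg in Ctrl replicate 1 (0.0564 CPM, others 0), Spi1 in YAP5SA replicate 3 (0.0533 CPM, others 0), Fcer1g in Ctrl replicate 3 (0.125 CPM, others 0), Colec12 in Ctrl replicate 3 (0.167 CPM, others 0) and Ptprc in YAP5SA replicate 1 (0 CPM, others 0.0456 to 0.0533).

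Among well-counted genes, Kitl was at 129 CPM in YAP5SA replicate 4 (others 85.4 to 90.7), Epn2 at 116 CPM in YAP5SA replicate 4 (others 95.1 to 96.5) and Eps8l3 at 14.9 CPM in YAP5SA replicate 3 (others 10.8 to 11.4). Etv3 was at 185 CPM in Ctrl replicate 1 (others 241 to 245), and Lcp1 at 37.9 CPM in Ctrl replicate 4 (others 47.2 to 48.0).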

How the results depend on the processing

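Of 190 values from the alternatives other than left-out libraries, 173 stayed within 1.5 times the reported count or within 1 SD of the reported ratio. DESeq2 called 1 endothelial marker lower (0 reported), and 5 GRB2 family genes lower, as did RLE scaling (3 reported). Scaling by library size called 3 CSF1R-class genes, 8 sialic acid genes and 5 GRB2 family genes higher, and 1 PU.1 partner and 3 LAMP family genes lower, and put the log2 bound for Grap at 7.12 (6.95 reported). With no count filter 1 granulocyte and 3 endothelial markers were lower, and 5 mesenchymal, 4 CSF1R-class, 1 Siglec and 6 PU.1 target genes higher. With the replicate number as a block 2 CSF1R-class genes were higher and 5 GRB2 family genes lower. The cause was not tested in these cases. Same-numbered libraries share only a number: deviations correlated at 0.07, 0.05, 0.09 and 0.28 for numbers 1 to 4, and YAP5SA replicate 3 correlated best with Ctrl replicate 2 (0.13).

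Leaving out each library gave 4212 to 4533 genes higher and 4087 to 4439 lower. The log2 ratio of mean CPM was 3.74 to 4.23 for Csf1, 6.48 to 6.78 for Csf1r, 1.45 to 1.83 for Cd68, 6.38 to 7.02 for Grap and 8.17 to 10.12 for Siglecg. For Grap, fewer Ctrl libraries raise the floor. For Siglecg the floor was used only without Ctrl replicate 1 (8.17). Without Ctrl replicate 2, 3 or 4 (9.63 each) its single Ctrl read was averaged over fewer libraries. Counts ran from 0 to 1 endothelial markers higher and 0 to 2 lower, 1 to 2 mesenchymal and 1 to 2 CSF1R-class genes higher, and 3 to 5 GRB2 family genes higher and 2 to 5 lower. Depth limits Spi1, Tyrobp and Fcer1g most.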
